A study of Mus musculus with 2 samples.

Results

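A set of 10 keratinocyte alarm genes was examined after SOX11, a DNA-binding protein of embryonic epidermis, was switched on in the epidermis of newborn mice. They are Il1a, Il1b, Il1rn, Il18, Il33, Tslp, Cxcl1, Cxcl14, Ccl27a and Tnf. Their probes were found by name, as every probe that carries one of these names and is no control spot, and they account for 12 of the 55676 probes tested and for 10 of 34820 names on the array. Each of 2 two-colour microarrays set RNA of 1 K14-rtTA;TRE-Sox11-FLAG pup, here called SOX11-induced, against RNA of 1 K14-rtTA littermate, the control. All pups were FVB/N and P4.5 and had received doxycycline (Dox) for 12 h, so the activator transgene and the drug were common to both groups and the Sox11 transgene was what separated them. The K14 promoter places the activator in keratin 14-positive keratinocytes. Langerhans cells, T cells and melanocytes, which also live in epidermis, would not carry active transgene, although their RNA is part of the dorsal epidermal sheets that were peeled off with dispase. In such bulk RNA, fewer cells of a type and less RNA per cell cannot be told apart.

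Keratinocytes are the first cells of the body to meet injury, and they hold a store of signals that call for help. Interleukin 1 alpha and interleukin 33 are kept ready-made inside the cell and act when a damaged cell releases them, whereas interleukin 1 beta and interleukin 18 are made as inactive precursors that caspase-1 cuts in an inflammasome. The chemokines CXCL14 and CCL27 belong to resting epidermis, which makes them constantly, while CXCL1, TNF and TSLP are low in resting skin and rise on wounding, infection or barrier damage. Whether the genes of this alarm system moved with SOX11 is the question that the comparison below addresses.

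Only 1 of the 10 genes passed the test, and it belongs to the resting set. Cxcl14 fell 3.16-fold in SOX11-induced epidermis, with a mean log2 ratio of -1.66 ± 0.365 (SD, n = 2), and it was lower in both littermate pairs. None of the genes that rise on wounding passed the test, and 3 of them (Tslp, Cxcl1 and Tnf) did not count as above background in either group, which takes at least 0.5 of a probe's spots. A log2 ratio is positive here where the SOX11-induced pup was the brighter, and a probe was called where the adjusted p-value of limma, over all probes, was under 0.05. In all, 0 of 12 probes were called higher and 1 lower, where 2.99% of all probes were called higher and 1.41% lower. Among the 21782 probes above background in some channel on both arrays these shares were 6.78% and 3.21%, and 8 of the 12 probes (6 of the 10 genes) belong to that set. Past a log2 ratio of 1.5 as well, the threshold worded in the methods of the study, lay 0.453% of all probes and Cxcl14 alone of the 12.

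The probes are 60-base DNA strands, and the array files list transcripts that each is taken to read. Ccl27a is the case where this matters, because it has 3 probes and near-identical copies elsewhere in the genome. The first 30 bases of each Ccl27a probe and of the Cxcl14 probe follow, 5′ to 3′, with capitals for the bases that the first and second Ccl27a probes have in common within the stretch shown.
Ccl27a, probe A: GAAAATGTACTCAAACCCccaacagcaaaa
Ccl27a, probe B: ggtactacaaaaGAAAATGTACTCAAACCC
Ccl27a, probe C: tcggagccccggacatgtcgcgattgagga
Cxcl14: cctcattagaggccgcactgtatggctgtg
Probes A and B overlap by 48 of their bases, so their values are not independent. Both list RefSeq transcripts of Ccl27b and Gm13306 beside Ccl27a, and probe A also lists Gm2506, so they read a group of near-identical genes and cannot be credited to Ccl27a alone. Probe C shares no such stretch with them and lists 3 transcripts, all of Ccl27a. Its sequence was not compared with the copies themselves. The lists of probes A and B hold 4 RefSeq entries each, and such lists may be cut short. A transcript missing from a list is therefore not shown to go unread by that probe.

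As a frame for these values, the control channel stood well above background at 37.5% of 59305 spots on array 1 and 38.7% on array 2, and the SOX11 channel at 40.6% and 42.6%. Across the array the raw SOX11 channel was the brighter, and normalization removes that difference, so a raw brightness can be higher where the log2 ratio is not. Control RNA carried Cy3 and SOX11-induced RNA Cy5 on both arrays per the labels, so dye and genotype cannot be told apart at any single probe. Probes of Sox11 itself, on chromosome 12 at 28019541-28019600 and 28020087-28020146, were not well above background in any channel and could not check the labels. Of 8 keratinocyte markers, 7 were above background, which fits the labelled tissue, and none was called. The exception was Cdh1, with a brightness of 39.8 and 40.9 in the control channel and 67.0 and 67.9 in the SOX11 channel. Whether its probe works was not tested. The largest means were 0.62 for Krt1 and 0.58 for Krt10 (adjusted p = 0.0784 and 0.119, limma). Under median centring, where each array is centred on its median in place of the loess curve, 5 of the 8 were called higher (median 0.73; Krt1 1.46, Krt10 1.44), and with an offset of 50 in the background correction 2 were called higher and 1 lower.

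Cxcl14 encodes a chemokine that healthy epidermis makes constantly and that draws dendritic cell precursors and other leukocytes. Its probe lies on the reverse strand at chr13:56390078-56390137 (mm9, the build of the array files). Control brightness was 2781 on array 1 and 3346 on array 2, in scanner units, and SOX11 brightness was 2175 and 2086. It is the only one of the 12 probes at which the raw SOX11 channel was the dimmer, and it was so in both pairs. The log2 ratios were -1.40 in pair 1 and -1.92 in pair 2, with a 95% interval of the mean from -2.05 to -1.27 and an adjusted p of 0.000911 in limma. No more than 0.34% of all probes had a mean further from 0. With the signals that the scanner software had already processed, the mean was -1.55 but the adjusted p was 0.270 in limma, and that setting called none of the 55676 probes.

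Bcam, Tfap2e and Tns1 were the named genes whose ratios lay nearest to those of Cxcl14, among 11258 genes that all 4 measurements placed above background. The measure was the distance over the 2 log2 ratios, which was 0.147 for Bcam, 0.217 for Tfap2e and 0.264 for Tns1. Bcam, a laminin-binding adhesion protein, lay at -1.50 in pair 1 and -1.81 in pair 2. Tfap2e, a member of the AP-2 family of transcription factors, had -1.36 and -1.71. Tns1, a focal adhesion protein, had -1.64 and -2.03. With 2 arrays this likeness describes no more than a shared size and direction.

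Ccl27a is the second chemokine of resting epidermis, known for drawing memory T cells that carry its receptor CCR10 into the skin. Probe A, at chr4:41716345-41716404, had log2 ratios of -0.41 and -0.26 averaging -0.34 ± 0.107 (SD, n = 2; adjusted p = 0.242, limma). Probe B, at chr4:41716357-41716416, had -0.39 and -0.15 averaging -0.27 ± 0.172 (SD, n = 2; adjusted p = 0.352, limma). Both were below 0 in both pairs, did not pass the test, and turned positive, to 0.37 and 0.42, under median centring. Probe C, at chr4:41720610-41720669, had 0.58 and 0.04, averaging 0.31 ± 0.380 (SD, n = 2; adjusted p = 0.344, limma). The probes thus disagreed in sign. The pair that also lists the copies was below 0, and the probe that lists Ccl27a alone was above it. Probe C also lies elsewhere, starting at base 42 of its transcript, against 517 for probe A and 339 for probe B. Probe B lists a Ccl27a transcript that probe C does not, and probe C was far dimmer. Which of these differences goes with the sign was not tested.
Brightness of probe A was 5611 and 5140 in the control channel and 8980 and 10367 in the SOX11 channel, and that of probe B was 4708 and 3724 against 7587 and 8025. Probe C had 108 and 152 in the control channel and 302 and 326 in the SOX11 channel, all well above background.

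**Figure D1:**
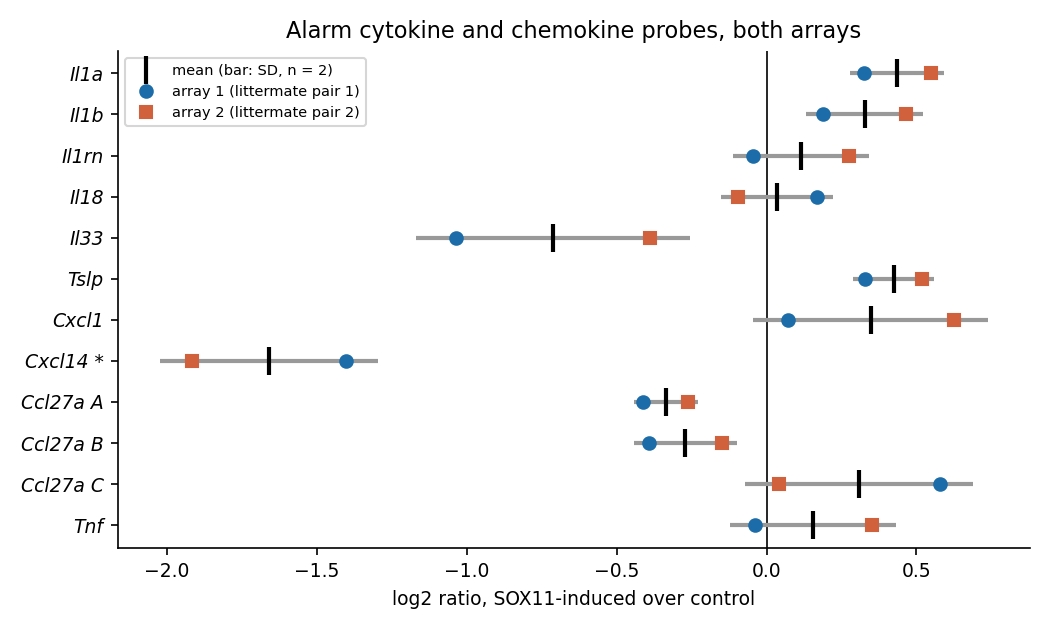
Log2 ratio of SOX11-induced over control epidermis (x axis) for the 12 probes (y axis), with a circle for array 1, a square for array 2, a black tick for the mean and a grey bar for its SD (n = 2). The asterisk marks the probe called by limma, Cxcl14, at -1.40 and -1.92, while Il33 at -1.04 and -0.39 is the other gene well to the left of 0 and the arrays lie on opposite sides of 0 for Il1rn, Il18 and Tnf.

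Among the alarm signals that are released from damaged cells, Il33 and Il1a stood on opposite sides of 0. Il33, a nuclear cytokine that acts on mast cells and type 2 lymphoid cells, has its probe at chr19:30035101-30035160. Control brightness was 102 and 78.7, and SOX11 brightness was 108 and 121, all marked well above background but within a few times it. The local background of its probe was 21 and 24 in the control channel and 59 and 57.5 in the SOX11 channel. Its log2 ratios were -1.04 in pair 1 and -0.39 in pair 2, both below 0 but far apart, with averaging -0.71 ± 0.457 (SD, n = 2; adjusted p = 0.0625, limma). It did not pass the test here, and it passed, with a mean of -0.50 and an adjusted p of 0.0479 in limma, when the offset added after background correction was 50 in place of 16. Of all probes 3.98% had a mean further from 0.

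Il1a encodes interleukin 1 alpha, the stored form of interleukin 1 in keratinocytes, and its probe lies at chr2:129125994-129126053. Control brightness was 60.2 and 52.6 and SOX11 brightness was 144 and 153, above background in each channel but within a few times the local background. The log2 ratios were 0.32 and 0.55 and averaged 0.44 ± 0.157 (SD, n = 2; adjusted p = 0.148, limma). Both pairs lay above 0, and the 95% interval, from 0.09 to 0.78, carries no correction for the number of probes tested. Centred on the median it had 0.69 and passed (adjusted p = 0.00863, limma), under a scaling that moved the median of all probes above background to 0.51.

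The precursors that caspase-1 cuts showed no call. Il18, at chr9:50389761-50389820, was bright, with 3834 and 4841 in the control channel and 9099 and 10944 in the SOX11 channel, so its signal was far above background in both groups. Its log2 ratios of 0.17 and -0.10 differed in sign, and the mean was 0.04 ± 0.187 (SD, n = 2; adjusted p = 0.923, limma), with a 95% interval from -0.31 to 0.38. Il1b, at chr2:129190347-129190406, is printed on 10 spots of each array. Its control channel was well above background at 0 of 10 spots on array 1 and 1 of 10 on array 2, and its SOX11 channel at 0 and 8. Log2 ratios were 0.19 and 0.47 and averaged 0.33 ± 0.195 (SD, n = 2; adjusted p = 0.267, limma), a change that did not pass the test. No fold is given, since the control channel was not measured above background on either array and the SOX11 channel on array 2 only. Ratios of single spots ran from -0.32 to 0.49 on array 1 and from -0.20 to 1.00 on array 2, so the spread between spots of 1 array (SD 0.279 and 0.347) was as wide as the difference between the pairs.

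Il1rn encodes the interleukin 1 receptor antagonist, which occupies the receptor without signalling and is made by keratinocytes in an intracellular form. Its probe, at chr2:24205094-24205153, had a brightness of 100.0 and 119 in the control channel and 189 and 296 in the SOX11 channel. Log2 ratios were -0.05 and 0.27 and averaged 0.11 ± 0.226 (SD, n = 2; adjusted p = 0.727, limma). The pairs lay on either side of 0, and the 95% interval of the mean ran from -0.24 to 0.47.

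The remaining 3 genes were too dim to count as above background in either group, so their ratios carry no fold. Tslp encodes a cytokine of barrier damage that instructs dendritic cells toward allergic responses, and its probe lies at chr18:32978885-32978944. Brightness was 29.0 and 24.2 in the control channel and 65.6 and 66.0 in the SOX11 channel, against a local background of 19 and 20 and of 59 and 63. The log2 ratios were 0.33 and 0.52 (adjusted p = 0.154, limma), and with processed signals the mean was -0.02.

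Cxcl1, a neutrophil-attracting chemokine at chr5:91321845-91321904, had a brightness of 35.6 and 38.9 against 66.1 and 89.5. Its log2 ratios were 0.07 and 0.62 (adjusted p = 0.291, limma). Tnf, at chr17:35336795-35336854, encodes a central inflammatory cytokine and is also printed on 10 spots. At most 4 of its 10 spots were well above background in any channel of an array, and its log2 ratios were -0.04 and 0.35 (adjusted p = 0.628, limma). A difference in these 3 genes was not detectable at this signal, which does not show that their levels were alike.

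**Figure D2:**
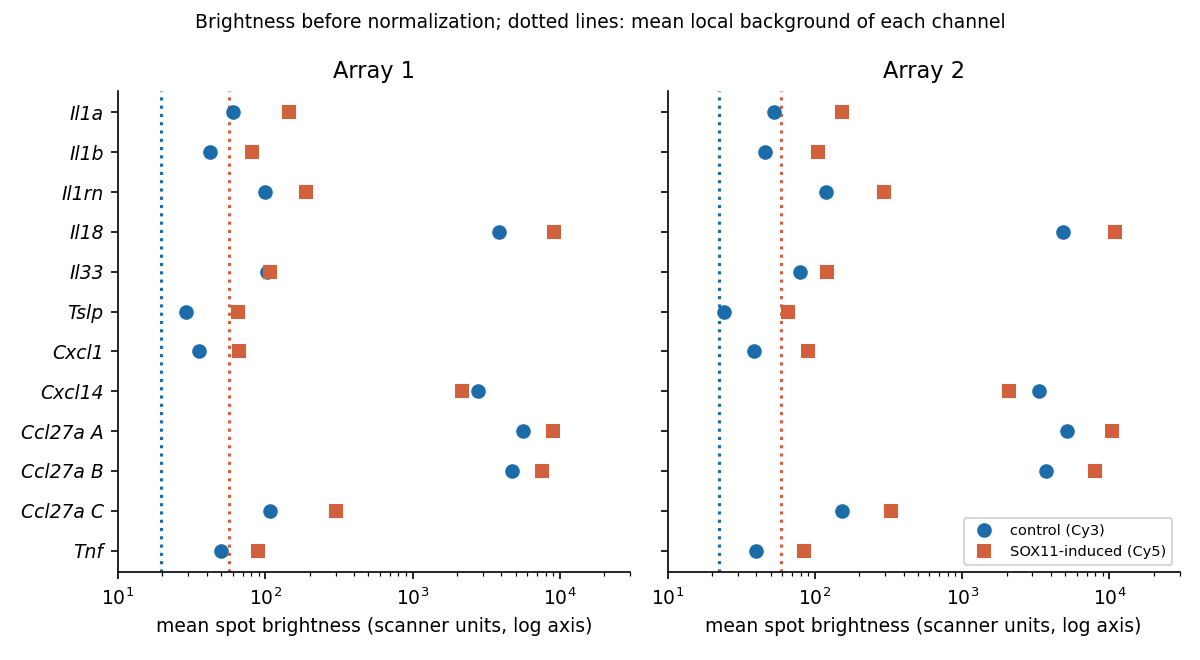
Mean spot brightness before normalization (x axis, scanner units, log axis) of the 12 probes on array 1 (left) and array 2 (right), with circles for the control channel (Cy3), squares for the SOX11 channel (Cy5) and dotted lines for the mean local background of each channel. Il18, Cxcl14 and Ccl27a probes A and B lie far to the right of the dotted lines, Tslp, Cxcl1 and Tnf lie near the dotted lines, and Cxcl14 is the only probe whose SOX11 square is to the left of its control circle.

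Over the 12 probes, 5 were above 0 in both pairs and 4 below 0 in both. The 4 include the overlapping Ccl27a probes A and B. Of all 55676 probes, 18578 were above 0 in both pairs and 17699 below. Of the 21782 above background, 8927 were above and 7202 below, and same-sign counts in the lists below are to be read beside these. The median of the means was 0.13 over the 12 probes, and that of all probes was 0.01. For the 6 genes above background, 1 probe a gene, the median was -0.15, where that of all probes above background was 0.04. The arrays disagreed in sign at 3 probes, Il1rn, Il18 and Tnf, whose means all lay within 0.16 of 0. The median SD of the 12 probes was 0.211, and that of all probes 0.157.

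Receptors and adaptors through which these cytokines act were read from the same fit, with the brightest probe of each gene. Calls in this and the following lists stand beside 2.99% of all probes called higher and 1.41% lower (6.78% and 3.21% above background). Of 21 genes, 0 were called higher and 2 lower, with a median of -0.09, and 14 were above background. The 2 are both receptors for interleukin 1. Il1r1, the signalling receptor, at chr1:40372667-40372726, had log2 ratios of -0.74 and -1.10 and fell by 0.92 ± 0.252 (SD, n = 2; adjusted p = 0.0139, limma). Il1r2, the decoy receptor that binds interleukin 1 without signalling, at chr1:40180014-40180073, had -0.75 and -1.21 and fell by 0.98 ± 0.324 (SD, n = 2; adjusted p = 0.0127, limma). Signalling and decoy receptor thus had about the same ratio in each pair. Brightness of Il1r2 was 1124 and 1188 in the control channel and 1367 and 1192 in the SOX11 channel, and that of Il1r1 was 146 and 195 against 176 and 207. Of the 21 genes 12 were below 0 in both pairs and 2 above. Under median centring the list's median turned to 0.05, with 4 genes called higher and 2 lower. The call of Il1r2 was lost there (-0.36, adjusted p = 0.113, limma).

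Of 15 genes that process or release the cytokines, 2 were called higher and 1 lower, with a median of -0.01. Casp1, the protease that cuts the interleukin 1 beta and interleukin 18 precursors, at chr9:5307206-5307265, had log2 ratios of 1.00 and 1.03 and rose 2.02-fold (mean 1.01 ± 0.0217, SD, n = 2; adjusted p = 0.00603, limma). Pycard, the adaptor ASC that joins caspase-1 to inflammasome sensors, at chr7:135136241-135136300, had -1.41 and -0.62 and fell by 1.01 ± 0.561 (SD, n = 2; adjusted p = 0.0230, limma). Protease and adaptor of the same complex therefore moved in opposite directions in both pairs, while Il18, whose product the complex cuts, had 0.17 and -0.10. Under median centring Pycard was at -0.30 and its call was lost (adjusted p = 0.284, limma). Casp8, a protease of death receptor signalling, at chr1:58901601-58901660, had 0.55 and 0.86, averaging 0.70 ± 0.219 (SD, n = 2; adjusted p = 0.0397, limma), and its call was lost when the prior of the variances was estimated without a floor (adjusted p = 0.0561).

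Of 19 genes of the NF-kB pathway and its common targets, 0 were called in either direction, with a median of -0.04, and 9 were below 0 in both pairs and 3 above. The largest means above background were those of Tnfaip3, the inhibitor A20, with 0.65 (adjusted p = 0.0637, limma), and Nfkb1, the p105 precursor, with -0.47 (adjusted p = 0.128, limma). Among 15 antimicrobial and other alarm proteins of keratinocytes 0 were called, with a median of -0.01. Slpi, a secreted protease inhibitor, had 0.57 (adjusted p = 0.0739, limma) and S100a8, a subunit of calprotectin, had 0.50 (adjusted p = 0.114, limma). At an offset of 50 these lists had 1 and 2 genes called higher (Tnfaip3, Slpi and S100a8). Under median centring they had 9 and 7 called higher and 2 and 1 lower. Of all 55676 probes, 2850 were called higher at that offset, and 12123 higher and 6362 lower under median centring.

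A further 27 cytokines and chemokines outside the 10 gave 1 call higher and 2 lower, with a median of 0.09, and 13 of them were not above background in any channel. Il36a, listed on the array as Il1f6 and a relative of interleukin 1 that keratinocytes make, at chr2:24081127-24081186, had log2 ratios of 0.86 and 0.62 and rose 1.67-fold (mean 0.74 ± 0.169, SD, n = 2; adjusted p = 0.0294, limma). Il34, at chr8:113265835-113265894, had -1.43 and -0.82 and fell by 1.12 ± 0.434 (SD, n = 2; adjusted p = 0.00928, limma). Csf1, at chr3:107544333-107544392, had -1.19 and -0.98 and fell by 1.08 ± 0.148 (SD, n = 2; adjusted p = 0.00493, limma), while 2 further Csf1 probes were below background. Interleukin 34 and CSF1 are the ligands of the receptor CSF1R, and interleukin 34 of keratinocytes is known for maintaining Langerhans cells, and both were lower in both pairs. Under median centring Il34 was at -0.46 and its call was lost (adjusted p = 0.0810, limma).

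**Figure D3:**
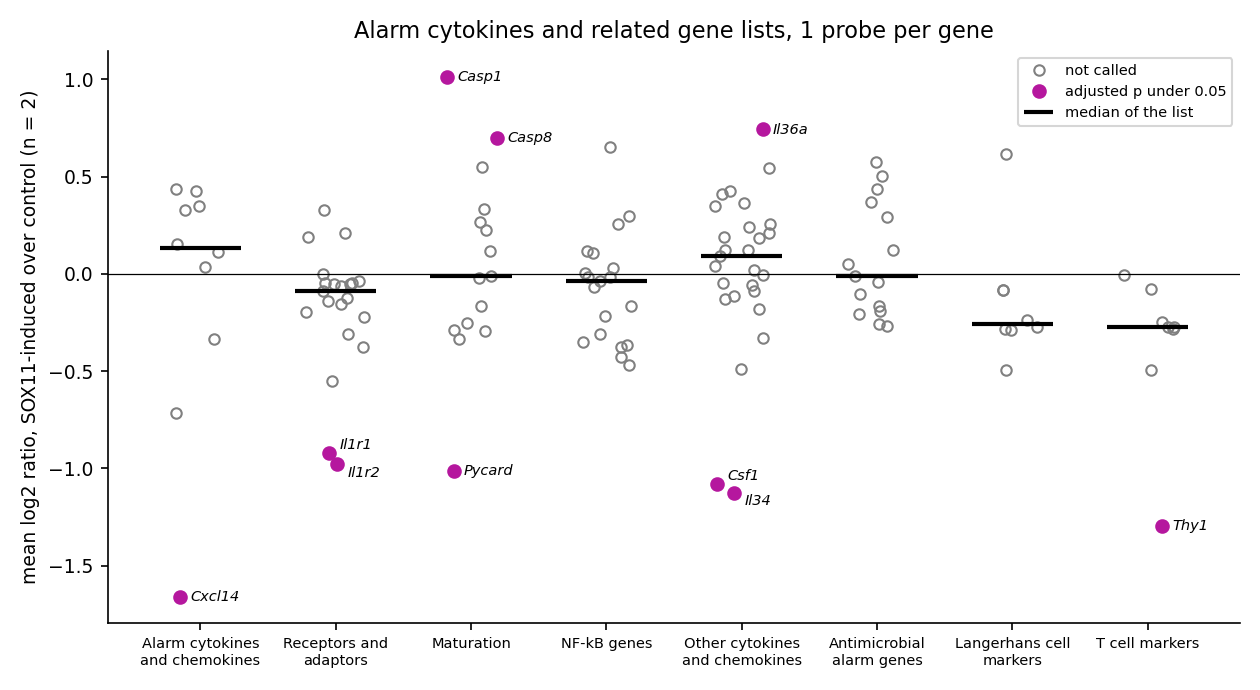
Mean log2 ratio over both arrays (y axis, n = 2) of each gene, 1 probe a gene, in 8 lists (x axis), with open circles for genes not called, filled circles with names for genes called by limma and a bar for the median of the list. Filled circles below 0 are Cxcl14, Il1r1, Il1r2, Pycard, Csf1, Il34 and Thy1, those above 0 are Casp1, Casp8 and Il36a, and all medians lie between -0.27 and 0.13.

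Markers of the other cells in an epidermal sheet stood as follows. Of 8 Langerhans cell markers, all above background, 0 were called and 7 were below 0 in both pairs, with a median of -0.26. Their defining gene Cd207, langerin, had a mean of -0.24 (adjusted p = 0.404, limma), and Csf1r, the receptor of the ligands above, had -0.08. The antigen-presentation genes Cd74, H2-Aa and H2-Ab1 had -0.49, -0.29 and -0.27 (adjusted p = 0.103, 0.310 and 0.331, limma). H2-Eb1, of the same group, had 0.61 (adjusted p = 0.0631, limma) and was the only 1 of the 8 above 0. The summed brightness of the 8 markers was 22812 and 8748 in the control channel and 40300 and 16731 in the SOX11 channel, so it differed more between the pairs than between the littermates. With an offset of 50 Cd74 was called lower (-0.48, adjusted p = 0.0176, limma) and H2-Eb1 higher (0.58, adjusted p = 0.0128, limma). Under median centring 2 of the 8 were called higher and the median of the list was 0.35, with Cd207 at 0.31, Cd74 at 0.20 and Csf1r at 0.59. The part of these cells in the values of Cxcl14, Il34 and Csf1 was not tested.
T cell markers had a median of -0.27, and 1 of 8 was called, Thy1, with -1.37 and -1.22 (mean -1.29 ± 0.103, SD, n = 2; adjusted p = 0.00179, limma). Of the 8, 6 were below 0 in both pairs and 0 above. Thy1 marks the dendritic T cells of mouse epidermis and other cells as well. The CD3 subunits of the T cell receptor complex, Cd3d, Cd3e and Cd3g, had means of -0.01, -0.08 and -0.28, none called. Under median centring the list's median was 0.094. Its summed brightness was 1962 and 1450 in the control channel and 2364 and 2136 in the SOX11 channel.
Of 6 dermal fibroblast markers 1 was called, Dcn, whose probe fell by 0.79 ± 0.244 (SD, n = 2; adjusted p = 0.0260, limma), while the median of that list was 0.30, and the call was lost under median centring (-0.24, adjusted p = 0.290). No marker was called among 8 of myeloid and mast cells (median 0.12, 5 not above background in any channel), 5 of melanocytes (0.24) and 4 of endothelium (0.11). The largest means above background in these lists were 0.15 for Adgre1 and 0.10 for Cd68, 0.64 for Tyrp1 and 0.30 for Tyr, and -0.16 for Kdr and 0.02 for Pecam1. Under median centring all 5 melanocyte markers were called higher (median 0.83; Tyrp1 1.19, adjusted p = 0.000991, limma), and with an offset of 50 Tyrp1 alone of them was (0.61, adjusted p = 0.0409, limma). The part of these cells in the result was not tested.

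**Figure D4:**
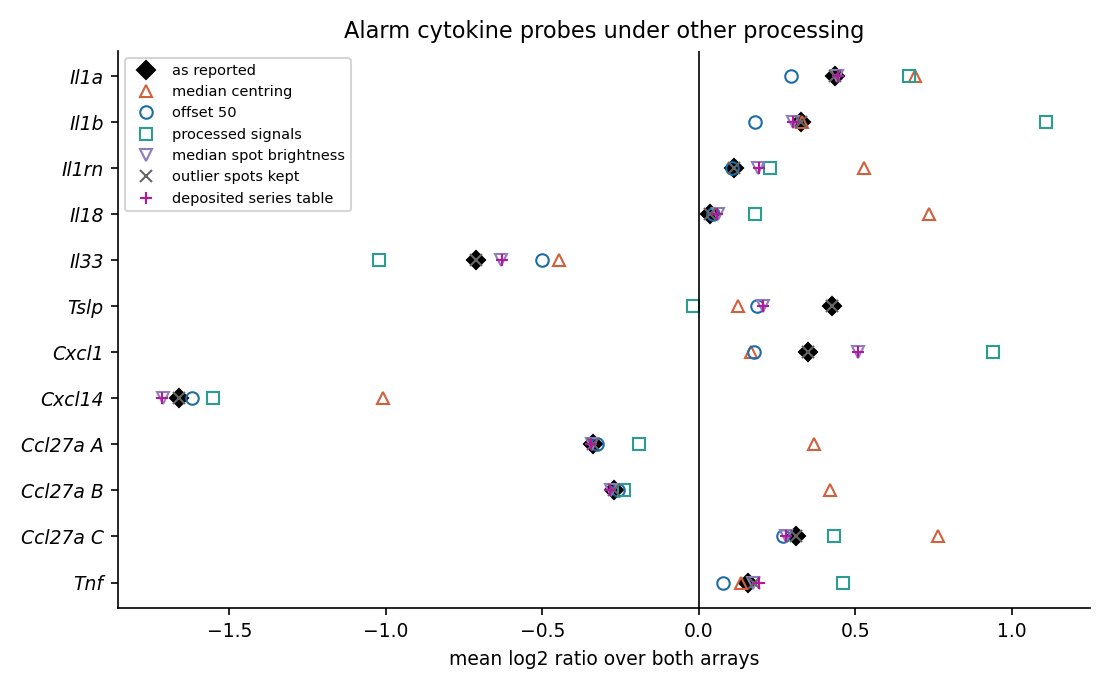
Mean log2 ratio over both arrays (x axis) of the 12 probes (y axis) as reported (black diamonds) and with 6 other ways of processing (other symbols). Cxcl14 stays below 0 in each, from -1.71 to -1.01, and Il33 from -1.02 to -0.45, while median centring carries Il18 to 0.73 and Ccl27a probes A and B from below 0 to 0.37 and 0.42.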

How the data were processed

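Each array compared a littermate pair per the labels, gender matched per the methods. The deposited intensity values are the brightness of each spot and its local background per channel, which per the file headers came from Agilent Feature Extraction 10.7.3.1, not normalized. Processed signals beside them are intensity values that this software had background-subtracted and dye-normalized. The deposited log2 ratios of the authors' series table were rebuilt from median spot brightness (correlation 1, largest differences 5.48e-05 and 0.000462). The methods describe a colour swap, which the labels do not show, and a ComBat step, which this rebuilding did not need. The log10 ratio column was not used.

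In R 4.3.3 with limma 3.58.1, mean brightness was corrected by normexp (a model that keeps signal above 0; offset 16) and each array was centred by loess, a curve of ratio against brightness. Control spots and outlier spots (194 and 186) were left out, spots of a probe averaged, and 55676 probes tested against 0 with lmFit and eBayes, Benjamini-Hochberg adjusted. A probe was above background where at least 0.5 of its spots were marked so.

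With 2 arrays the test rests on a prior (8.34 degrees of freedom, SD 0.223). The script was tested on simulated data. There, limma's floor on small variances made this prior too strong and the adjusted p-values too small at this size. A prior without the floor (6.90 degrees of freedom) was added as an alternative after seeing the data. It serves as a comparison and not as a correction. A call that it keeps is not thereby shown to have an adjusted p-value of the right size. The number of arrays limits the precision.

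Members and lists were chosen with earlier results of these data known. Named were every probe of the 10 genes and, per list, called genes (at most 6) or else the 2 with the largest means above background, Sox11, and the 3 genes nearest Cxcl14. Cd207, Csf1r, Cd3d, Cd3e, Cd3g, H2-Aa, H2-Ab1 and Cdh1 were named after their values were seen. Lists held receptors and adaptors, maturation, NF-kB, other cytokines, antimicrobial genes and 7 sets of cell markers. RefSeq (GRCm38.p6) gave transcript names only. Alternatives were median centring, an offset of 50, processed signals, median brightness, leaving out dim probes, keeping outlier spots, the series table, the probe with the smallest p per gene, and each array alone.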

Additional observations from a re-analysis of the deposited data

How the results depend on the processing

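Cxcl14 kept its direction in every setting run (-1.71 to -1.01 over both arrays, adjusted p from 0.000496 to 0.270, and -1.40 and -1.92 on each array alone) and lost its call with processed signals only (-1.55, adjusted p = 0.270, limma). Each array alone allows no test, since 1 array leaves no residual degrees of freedom. Over all probes, 1662 were called higher and 784 lower, against 12123 and 6362 under median centring, 2850 and 1555 with an offset of 50, and 0 and 0 with processed signals, where 8757 had an unadjusted p under 0.05. Median centring leaves the dependence of ratio on brightness in place and moves the median of probes above background from 0.04 to 0.51. There, 4 alarm probes were called higher (Il1a 0.69, Il1rn 0.53, Il18 0.73, Ccl27a C 0.76) and 1 lower (Cxcl14). Ccl27a A and B reversed to 0.37 and 0.42. Calls higher were 4 of receptors, 7 of maturation, 9 of NF-kB, 7 of other cytokines and 7 of antimicrobial genes. Calls lower were 2 of receptors, 1 of maturation, 2 of NF-kB, 2 of other cytokines and 1 of antimicrobial genes. Since Il1r2, Pycard and Il34 lost their calls there, the lower calls include genes without a call in the results above. Medians reversed to 0.045 (receptors), 0.31 (maturation), 0.30 (NF-kB) and 0.36 (antimicrobial). With an offset of 50, 2 alarm probes were lower (Il33 joined, -0.50). At that offset 3 maturation, 1 NF-kB, 2 other cytokine and 2 antimicrobial genes were called higher. Called lower were 3 receptor, 1 maturation and 2 other cytokine genes. With processed signals all list calls were 0, as were alarm probes (1 at an unadjusted p under 0.05), and Tslp (-0.018), maturation (0.16) and antimicrobial genes (0.10) reversed. The median of maturation also reversed with median brightness (0.073), the series table (0.071) and dim probes left out (0.25), and that of antimicrobial genes with dim probes left out (0.12). With 1 array left out, values ran from -0.10 (array 2) to 0.17 for Il18, from -0.046 (array 1) to 0.27 for Il1rn and from -0.040 (array 1) to 0.35 for Tnf, and medians from -0.064 (array 1) to 0.019 for maturation, from -0.072 (array 1) to 0.16 for antimicrobial genes and from -0.17 (array 1) to -0.040 for NF-kB. Without the prior's floor 1 maturation gene was called higher, and 1284 probes were higher and 582 lower. Of the markers, median centring called 5 keratinocyte, 2 Langerhans, 1 T cell, 1 myeloid, 5 melanocyte and 3 fibroblast genes higher and 2 T cell and 1 myeloid genes lower, and an offset of 50 called 2 keratinocyte, 1 Langerhans and 1 melanocyte genes higher and 1 keratinocyte, 1 Langerhans, 1 T cell and 1 fibroblast gene lower. Among other named genes, median centring also reversed Cd74 (0.20), Kdr (0.42), Cd207 (0.31), Csf1r (0.59), Cd3d (0.35), Cd3e (0.46) and Cd3g (0.12) and the medians of Langerhans (0.35), T cell (0.094) and myeloid markers (-0.068), and ended the calls of Il1r2 (-0.36), Pycard (-0.30), Il34 (-0.46) and Dcn (-0.24). Processed signals reversed the median of keratinocyte markers (-0.055), and leaving out dim probes that of endothelial markers (-0.069). With 1 array left out, values ran from -0.13 (array 2) to 0.32 for Cd68, from -0.072 (array 2) to 0.12 for Pecam1, from -0.31 (array 1) to 0.29 for Cd3d and from -0.084 (array 1) to 0.38 for Adgre1, and medians from -0.056 to 0.10 for endothelial, from -0.061 to 0.26 for myeloid and from -0.099 to 0.50 for fibroblast markers. The cause was not tested for the other changes. Brightness near background limits Tslp, Cxcl1, Tnf and Il1b.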
